A study of Homo sapiens with 14 samples.

Results

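GDF15 encodes growth differentiation factor 15, a secreted cytokine of the TGF-beta superfamily, and its messenger RNA was followed in human fibroblasts exposed to an inhibitor of mitochondrial DNA replication. It was taken as the 1 gene with that symbol among the 27142 genes of the count table. GDF15 was chosen by its measured levels in these same libraries, untreated and at each ddC time, so its values are given as a description, with no test. The cells were IMR90, an established line of fetal lung fibroblasts of wild-type genotype, grown in EMEM with 10% fetal bovine serum, and polyadenylated RNA was sequenced. Cells without drug gave 2 libraries. Cells with 20 uM 2',3'-dideoxycytidine (ddC) gave 3 libraries each after 24, 48, 72 and 96 h. ddC is a chain-terminating cytidine analog that is taken up by the mitochondrial DNA polymerase. The design text places the untreated cells at 0 h, but their labels give water as vehicle and a time of 4 days, so their time in culture is uncertain. The labels do not say whether replicates were separate cultures, so p-values measure the spread between libraries, which may be technical. All 4 times were set against the same 2 untreated libraries.

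GDF15 is made as a precursor that is cleaved by furin-type proprotein convertases and secreted as a dimer. Its receptor, GFRAL, signals through the tyrosine kinase RET and is found in the hindbrain, where it lowers food intake. Many tissues raise GDF15 under stress, and its level in blood is used as a marker of mitochondrial disease. The best known routes to its transcription are the integrated stress response, in which kinases of the initiation factor eIF2 favour translation of the transcription factors ATF4 and CHOP (DDIT3), and p53, which is activated by DNA damage.

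In the table GDF15 is the transcript NM_004864 on the plus strand of hg19 chromosome 19, from 18496770 to 18499987, with 1395 bases of exon. On GRCh38 its first exon spans 18386158 to 18386466 and its second exon 18388286 to 18389176, and the microRNA gene MIR3189 lies in the intron between them (18386562 to 18386634). The 250 bases before the transcription start are shown because this is where the factors named below could be looked for. They come from RefSeq (GRCh38.p14, chr19:18385908-18386157, plus strand), with the GC boxes in capitals, a motif bound by SP1.

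GDF15 promoter: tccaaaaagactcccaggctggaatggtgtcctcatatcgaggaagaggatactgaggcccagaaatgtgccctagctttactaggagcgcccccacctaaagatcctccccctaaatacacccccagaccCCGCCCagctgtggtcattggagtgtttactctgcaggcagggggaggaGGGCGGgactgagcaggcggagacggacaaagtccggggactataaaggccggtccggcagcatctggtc

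Motifs were searched on both strands in the window from these 250 bases to 50 bases after the start. The 2 GC boxes (GGGCGG, or CCGCCC on the other strand) begin at positions -119 and -70. A GC box was present in 70.6% of the 10033 promoters of tested genes that had a sequence. TATAAA begins at -29, and 3.36% of these promoters hold it anywhere, read in the gene's direction. GDF15 had 0 matches in the window to the ATF4-type element TGATGNAA, which 1.61% of the promoters hold. Of 24 ATF4 targets with a promoter sequence, 6 hold it. GDF15 also had 0 matches to the cyclic AMP response core TGACGT (in 11.9% of the promoters), the AP-1 site TGANTCA (4.43%), the EGR1 core GCGNGGGCG (15.9%), the hypoxia response core ACGTG (26.8%), the ER stress element core CCACG (50.1%) and an exact copy of 1 unit of a p53 site (5.13%). The GC boxes overlap none of the other matches. No match means only that these letters are absent from this window.

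The window holds a run of 20 bases that resembles a full p53 site, which is a pair of 10-base units. It lies in the first exon at chr19:18386186-18386205 (GRCh38, plus strand), 29 to 48 bases from the start, and spans the start codon at 33. Capitals mark the 17 bases that fit the consensus and lower case the 3 that do not.

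GDF15 p53-like site: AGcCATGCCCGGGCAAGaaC

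A window with 3 or fewer mismatches was found in 3.73% of the promoters of tested genes. Of the genes nearest to GDF15 in pattern, described below, 6 had a promoter sequence, and 0 of these had as few mismatches. Of these 6 genes, the best window of the p53 target BTG2 had 4 mismatches and those of the p53 targets BBC3 and CDKN1A had 5. Those of MAMDC2, AK4 and FAM43A, which are not on the p53 list, had 5, 6 and 6. The best windows of the other p53 targets were not compared with that of GDF15. Sites outside the window were not searched. An exact copy of 1 unit was present in 3 of 25 p53 targets with a promoter sequence. The site was looked for after the sequence had been read, and binding was not measured here.

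GDF15 RNA was higher in every ddC library than in either untreated library, in a step by 24 h, a level stretch to 72 h and a larger step at 96 h. Values are in CPM, the count of a gene as a share of the scaled library total. The untreated libraries had 190 and 174 reads of GDF15, or 16.5 and 15.3 CPM. At 24 h the libraries held 18.7, 24.0 and 25.3 CPM. The 48 h libraries held 26.9, 26.9 and 21.7 CPM. The 24 h and 48 h libraries overlapped, and 24 h replicate 1 was the treated library closest to the untreated ones. The 72 h libraries were close together at 24.3, 25.9 and 26.4 CPM. At 96 h the values were 31.98, 42.6 and 42.3 CPM, from 370, 490 and 503 reads. Every 96 h library lay above every library of the earlier times, though replicate 1 stood well below the other two. The exact Poisson 95% interval, which covers counting error only, was 28.8 to 35.4 CPM for 96 h replicate 1 and 39.0 to 46.6 CPM for replicate 2.

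**Figure D1:**
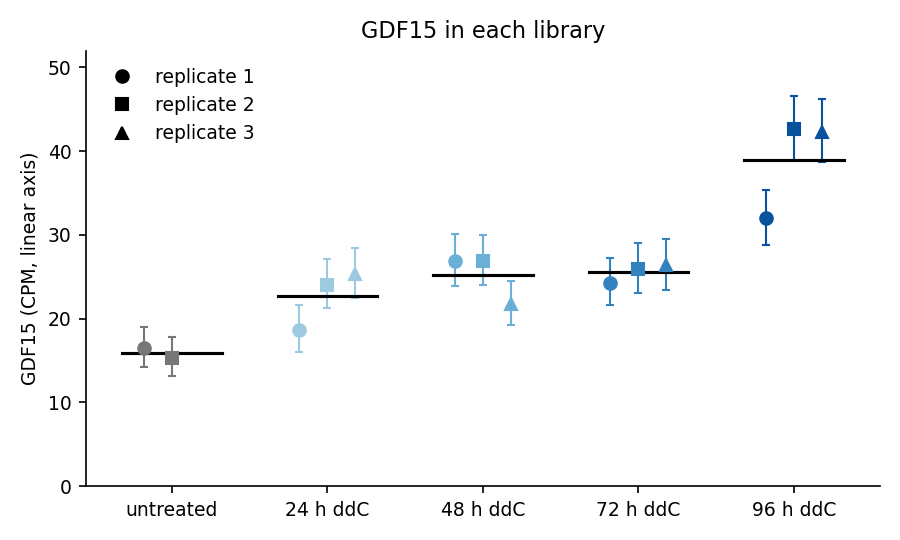
GDF15 in each of the 14 libraries (y axis, CPM on a linear scale) by group (x axis), with points for libraries, error bars for the exact Poisson 95% interval of the count and horizontal lines for group means. All ddC libraries lie above both untreated libraries, the 24, 48 and 72 h libraries overlap, and the 96 h libraries begin at 31.98 CPM, above the highest earlier value of 26.9 CPM.

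Group means were 15.9 ± 0.801 CPM in untreated cells (SD, n = 2), then 22.7 ± 3.54, 25.2 ± 3.00, 25.5 ± 1.09 and 39.0 ± 6.07 CPM after 24, 48, 72 and 96 h (SD, n = 3 each). Relative to untreated cells the means were 1.43-, 1.58-, 1.60- and 2.45-fold. The fitted log2 fold changes were 0.52 ± 0.15, 0.66 ± 0.15, 0.68 ± 0.15 and 1.29 ± 0.14 (SE). Thus 29.3% of the 96 h rise had been reached at 24 h and 41.7% at 72 h. The mean at 48 h was 1.11-fold that at 24 h, and the mean at 72 h was 1.01-fold that at 48 h, differences smaller than the spread between libraries. The 96 h mean was 1.53-fold the 72 h mean, with no overlap.

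Per kilobase of transcript, GDF15 stood at 27.9 ± 4.35 CPM per kb at 96 h (SD, n = 3) and at 11.4 ± 0.575 CPM per kb in untreated cells (SD, n = 2). Ranked by this measure it was gene 2696 of the 13371 tested genes at 96 h and gene 5583 in untreated cells, with 79.8% of tested genes below it at 96 h and 58.2% below it in untreated cells. Its fitted log2 change at 96 h ranked 5 among the 11990 genes that averaged a log2 CPM of 1 or more, and those at 24, 48 and 72 h ranked 63, 20 and 40. Over all 13371 tested genes the ranks were 256, 139, 191 and 29 at 24, 48, 72 and 96 h.

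Library totals ranged from 9398703 to 12147402 counts. An antisense index was built from 41 pairs of an abundant gene and a sparsely counted gene that overlaps it on the opposite strand. It gives the reads on the sparse genes for every 1000 reads on the abundant ones. A change in the level of either kind of gene would also move it. The index was 0.570 to 0.706 in the untreated and 24 h libraries and in 48 h replicates 1 and 2. It was 0.824 to 0.973 in 48 h replicate 3 and in all 72 h and 96 h libraries. By group it was 0.824 to 0.914 at 72 h and 0.904 to 0.973 at 96 h. Setting 72 h or 96 h against untreated cells therefore also compares libraries of higher with libraries of lower index, and the 2 cannot be told apart there. Among lower-index libraries, GDF15 was 18.7 to 25.3 CPM at 24 h, 26.9 CPM in both 48 h libraries, and 15.3 to 16.5 CPM in untreated cells. Among higher-index libraries it was 31.98 to 42.6 CPM at 96 h, 24.3 to 26.4 CPM at 72 h and 21.7 CPM in 48 h replicate 3. Neither set holds both untreated and 96 h libraries. With the index as a covariate the fitted 96 h change of GDF15 was 1.49. The fibroblast markers COL1A1, COL1A2, COL3A1, VIM, PDGFRB, THY1 and DCN were present in all libraries, and COL1A1 stood at 15694 CPM or more. Their summed level was 40936 to 44437 CPM at 96 h and 35000 to 35731 CPM in untreated cells. Most of this difference was in COL1A1, with a mean of 21919 CPM at 96 h and 16897 CPM in untreated cells, and COL1A2, with 11059 CPM at 96 h and 8879 CPM in untreated cells. VIM was at 5190.4 CPM at 96 h and 5323 CPM in untreated cells. The epithelial marker CDH1, the endothelial markers PECAM1 and CDH5 and the T cell marker CD3E had 0 counts throughout. The 4 epithelial markers summed to 6.14 to 6.44 CPM at 96 h and 4.42 to 4.497 CPM in untreated cells, nearly all of it KRT19. The 4 endothelial markers summed to 0.346 to 0.696 CPM at 96 h and 0.529 to 0.694 CPM in untreated cells, and the 4 blood markers to 0.0864 to 0.348 CPM at 96 h and 0.173 to 0.353 CPM in untreated cells. The part of these marker shifts in the 96 h results was not tested. In bulk RNA, more cells that express a gene and more RNA per cell cannot be told apart.

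The transcriptional routes to GDF15 were followed through 34 p53 targets and 41 ATF4 targets, neither list holding GDF15 itself. Genes are described as called where edgeR's quasi-likelihood test gave an adjusted p under 0.05 (Benjamini-Hochberg over all 13371 genes). The p53 targets were higher from 24 h on: 30 of 34 lay above 0 at 24 h and at 48 h, 32 at 72 h and 33 at 96 h, with median log2 fold changes of 0.16, 0.20, 0.21 and 0.34. Of the 41 ATF4 targets, 34, 18, 37 and 38 lay above 0 at these times, with medians of 0.07, -0.01, 0.15 and 0.28. Over all tested genes the median was 0.00 at every time, and 51.9%, 51.0%, 51.3% and 49.2% lay above 0. Library by library, the mean log2 difference of the ATF4 list from untreated cells was 0.05 to 0.08 at 24 h, -0.02 to 0.02 at 48 h, 0.11 to 0.19 at 72 h and 0.29 to 0.31 at 96 h. That of the p53 list was 0.15 to 0.20, 0.22 to 0.24, 0.24 to 0.27 and 0.40 to 0.41. The difference between the lists was not tested, nor was the part of either route in the level of GDF15.

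**Figure D2:**
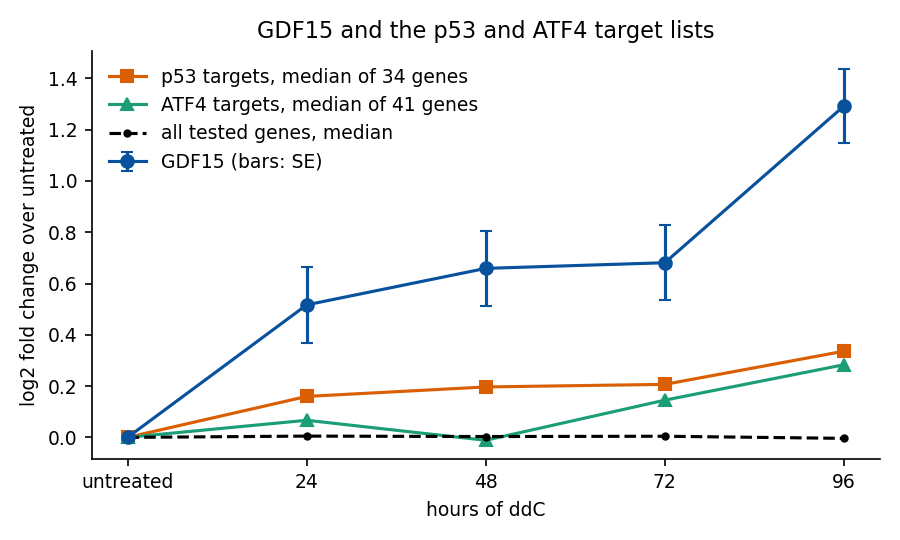
Fitted log2 fold change over untreated cells (y axis) by hours of ddC (x axis) for GDF15 with its SE, for the medians of 34 p53 targets and 41 ATF4 targets, and for the median of all 13371 tested genes. GDF15 and the p53 median are above 0 from 24 h on and nearly level to 72 h, the ATF4 median is near 0 at 48 h, and all 3 are highest at 96 h.

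Single p53 targets passed the test from 48 h on. At 24 h, edgeR called 0 of all 13371 genes (0%), with 457 at an unadjusted p under 0.05, and DESeq2 called 1 and limma-voom 0. At 48 h the 1 gene called (0.00748%) was the p53 target CDKN1A, the cell cycle inhibitor p21. At 72 h edgeR called 24 genes (0.179%), 19 of them higher (0.142%) and 5 lower (0.0374%). They included 2 p53 targets, CDKN1A and FDXR, a mitochondrial reductase of ferredoxin. At 96 h it called 759 genes (5.68%), 477 of them higher (3.57%) and 282 lower (2.11%). Of the 34 p53 targets, 18 rose at 96 h (52.9%) and 1 fell. These calls leaned on the untreated libraries: without untreated replicate 2, 9 p53 targets were called at 96 h in either direction, against 19 with all libraries, and 0 at 72 h. The count of all genes called at 96 h was then 174. It was 265 when untreated replicate 1 was left out, 425 for 96 h replicate 1 and 431 for 96 h replicate 3.

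CDKN1A was the member with the most reads. Its untreated libraries held 450.0 and 429 CPM. The 24 h libraries held 527, 602 and 634 CPM. The 48 h libraries held 679, 631 and 620 CPM. All 6 lay above both untreated libraries. At 72 h CDKN1A was at 643, 630.2 and 747 CPM, and at 96 h at 856, 878 and 903 CPM, again with no overlap between 96 h and any earlier time. The log2 changes were 0.42 ± 0.08 at 24 h (adjusted p = 0.378), 0.55 ± 0.08 at 48 h (adjusted p = 0.0106), 0.61 ± 0.08 at 72 h (adjusted p = 9.90e-04) and 1.00 ± 0.08 at 96 h (adjusted p = 3.05e-07). The 48 h call ended without untreated replicate 1 (adjusted p = 0.185), untreated replicate 2 (0.523) or 48 h replicate 1 (0.0573) or with limma-voom (0.0513), and the 72 h call without untreated replicate 2 (0.0899). Per length CDKN1A was far more abundant than GDF15, at 388 CPM per kb at 96 h and 194 CPM per kb in untreated cells.

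Other p53 targets also rose at 96 h. BBC3, the proapoptotic protein PUMA, stood at 12.6, 13.0 and 13.9 CPM at 96 h and at 5.81 and 6.97 CPM in untreated cells (1.05 ± 0.14, adjusted p = 8.85e-05). SPATA18, which takes part in mitochondrial protein turnover, rose by 1.02 ± 0.14 (adjusted p = 1.39e-04) and BTG2, an antiproliferative regulator, by 0.94 ± 0.13 (adjusted p = 1.48e-04). For all 3 genes the 96 h libraries lay clear of the untreated ones. FDXR rose by 0.79 ± 0.12 (adjusted p = 2.78e-04) and GADD45A, a DNA damage response gene, by 0.53 ± 0.08 (adjusted p = 3.76e-04). The call of FDXR at 72 h (0.58 ± 0.12, adjusted p = 0.0450) ended without any 1 of 9 libraries, with adjusted p of 0.0511 to 0.495. These were both untreated ones, 48 h replicate 1 and all those at 72 h and 96 h. It also ended with limma-voom (0.0994), the antisense index (0.0962) or the compared groups alone (0.0858). MDM2, the ubiquitin ligase of p53, rose by 0.33 ± 0.07 (adjusted p = 0.0048, and 0.104 without untreated replicate 1). KITLG, the ligand of the receptor KIT, fell by 0.25 (SE 0.07, adjusted p = 0.0335). Its call ended without either untreated library or without 96 h replicate 1 or 3, with adjusted p of 0.0800 to 0.241.

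The ATF4 targets were mostly called at 96 h. None passed at 24 or 48 h, and 1 rose at 72 h, CBS, an enzyme of cysteine synthesis. At 96 h, 25 of 41 rose (61.0%, beside 3.57% of all tested genes) and 0 fell. The count was 13 without untreated replicate 1 and 8 without untreated replicate 2. DDIT4, an inhibitor of mTORC1 that p53 and low oxygen also induce, had the smallest p. It held 123, 110 and 124 CPM at 96 h, 74.2, 81.5 and 88.0 CPM at 72 h, and 66.2 and 62.6 CPM in untreated cells. The 96 h libraries stood apart from all others, and the log2 change was 0.88 ± 0.08 (adjusted p = 6.96e-07). TRIB3, a pseudokinase that feeds back on ATF4 and CHOP, rose by 0.62 ± 0.10 (adjusted p = 5.01e-04). CHAC1, which degrades glutathione, rose by 0.57 ± 0.08 (adjusted p = 1.31e-04). ASNS, asparagine synthetase, rose by 0.41 ± 0.07 (adjusted p = 6.09e-04), and the stress protein NUPR1 by 0.47 ± 0.09 (adjusted p = 0.00186). Their estimates were below the 0.88 of DDIT4 and the 1.29 of GDF15. CBS rose by 0.64 ± 0.07 (adjusted p = 2.00e-05), with the reservation that its near-identical copy CBSL may share its reads. Its 72 h call (0.41 ± 0.07, adjusted p = 0.0184) ended without untreated replicate 1 or 2 or 72 h replicate 1 or 3, with adjusted p of 0.0718 to 0.390. It also ended with the antisense index as a covariate (0.546) and in the fit of the compared groups alone (0.0674). SESN2, a stress-induced regulator of mTORC1 that p53 also induces, rose by 0.44 ± 0.10 (adjusted p = 0.0117). Its call ended without untreated replicate 1 (0.153), untreated replicate 2 (0.0688) or 96 h replicate 3 (0.0706).

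The step at 96 h could also be taken within the higher-index libraries, against 72 h, a comparison added after the values were seen. It is not matched for the index, which was 0.824 to 0.914 at 72 h and 0.904 to 0.973 at 96 h. There edgeR called 69 genes (0.516%), 61 of them higher (0.456%) and 8 lower (0.0598%). They included the p53 targets CDKN1A (0.38 ± 0.07, adjusted p = 0.0121) and SPATA18 (0.57 ± 0.12, adjusted p = 0.0311) and the ATF4 target DDIT4 (0.55 ± 0.07, adjusted p = 5.68e-04). In this comparison GDF15 had a log2 change of 0.61 ± 0.12. Of the lists, 28 of 34 p53 targets and 38 of 41 ATF4 targets lay above 0, with medians of 0.17 and 0.14. Of all tested genes, 6576 of 13371 lay above 0. With the antisense index as a covariate, 4 of 34 p53 targets and 4 of 41 ATF4 targets were called at 96 h over untreated cells. Of all 13371 tested genes, 82 were called in that fit. The calls of SPATA18, BTG2, GADD45A, MDM2, KITLG, CHAC1, ASNS, NUPR1 and SESN2 then ended, with adjusted p of 0.0658 to 0.407. Their log2 changes kept their direction, with SPATA18 at 0.97, BTG2 at 0.92, CHAC1 at 0.59, NUPR1 at 0.51, GADD45A at 0.50, SESN2 at 0.44, ASNS at 0.40, MDM2 at 0.23 and KITLG at -0.29.

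Of 16 transcription factors that are known to act on GDF15 or on related stress genes, 3 rose at 96 h (18.8%, beside 3.57% of all tested genes) and 0 fell, with 0 called earlier. ATF3, a stress-inducible repressor and activator, held 9.42, 10.2 and 9.51 CPM at 96 h and 4.16 and 4.94 CPM in untreated cells. At 24, 48 and 72 h it held 5.43 to 8.15 CPM. All treated libraries were above the untreated ones and the 96 h libraries above the rest, with a log2 change of 1.09 ± 0.17 at 96 h (adjusted p = 3.21e-04). ATF4 itself held 312, 296 and 316 CPM at 96 h and 239 and 254 CPM in untreated cells, a rise of 0.32 ± 0.06 (adjusted p = 0.00114, and 0.0508 without untreated replicate 1). XBP1, a factor of the unfolded protein response, rose by 0.30 ± 0.07 (adjusted p = 0.0135). Its call ended without untreated replicate 1 (0.0729), untreated replicate 2 (0.173) or 96 h replicate 3 (0.0529). With the antisense index as a covariate, the calls of ATF3 (0.73, adjusted p = 0.256), ATF4 (0.37, adjusted p = 0.111) and XBP1 (0.35, adjusted p = 0.246) ended too.

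The other factors reported here did not pass. DDIT3 (CHOP) held 21.4, 16.5 and 17.2 CPM at 96 h and 12.6 and 14.7 CPM in untreated cells. Its groups did not overlap, but its log2 change of 0.43 ± 0.14 missed the threshold (adjusted p = 0.0768). TFEB, CEBPB, KLF4, HIF1A and RELA had log2 changes of 0.13 to 0.41, and TFE3 and ATF6 of 0.03 and 0.00. NFE2L2, EGR1, NFKB1 and SP1 lay at -0.06, -0.10, -0.19 and -0.27. The fit of the compared groups alone did call DDIT3 (adjusted p = 0.0202) and CEBPB (0.0125) as higher and SP1 (0.00778) as lower. A nuclear RNA score as a covariate, built from MALAT1 and similar noncoding RNAs, let these 3 and HIF1A (0.0294) pass as well. Nuclear RNA content itself was not measured. MALAT1 ranged from 95.1 to 271 CPM in untreated libraries, 52.2 to 356 CPM at 24 h and 52.1 to 264 CPM at 48 h. It held 81.5 to 409 CPM at 72 h and 77.3 to 194 CPM at 96 h. Over all tested genes, 5.68% were called at 96 h and at most 0.179% earlier. At the RNA level, the 8 tested kinases and regulators of the integrated stress response showed 0 calls at any time, near that share. They are the kinases HRI (EIF2AK1, 0.07 ± 0.06 at 96 h), PKR (EIF2AK2, -0.03 ± 0.08), PERK (EIF2AK3, -0.11 ± 0.10) and GCN2 (EIF2AK4, -0.01 ± 0.06) and their substrate EIF2S1 (-0.11 ± 0.08). Also uncalled were the phosphatase subunits PPP1R15A and PPP1R15B (0.02 each) and the mitochondrial protease OMA1 (-0.16 ± 0.16). Protein levels and phosphorylation were not measured.

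**Figure D3:**
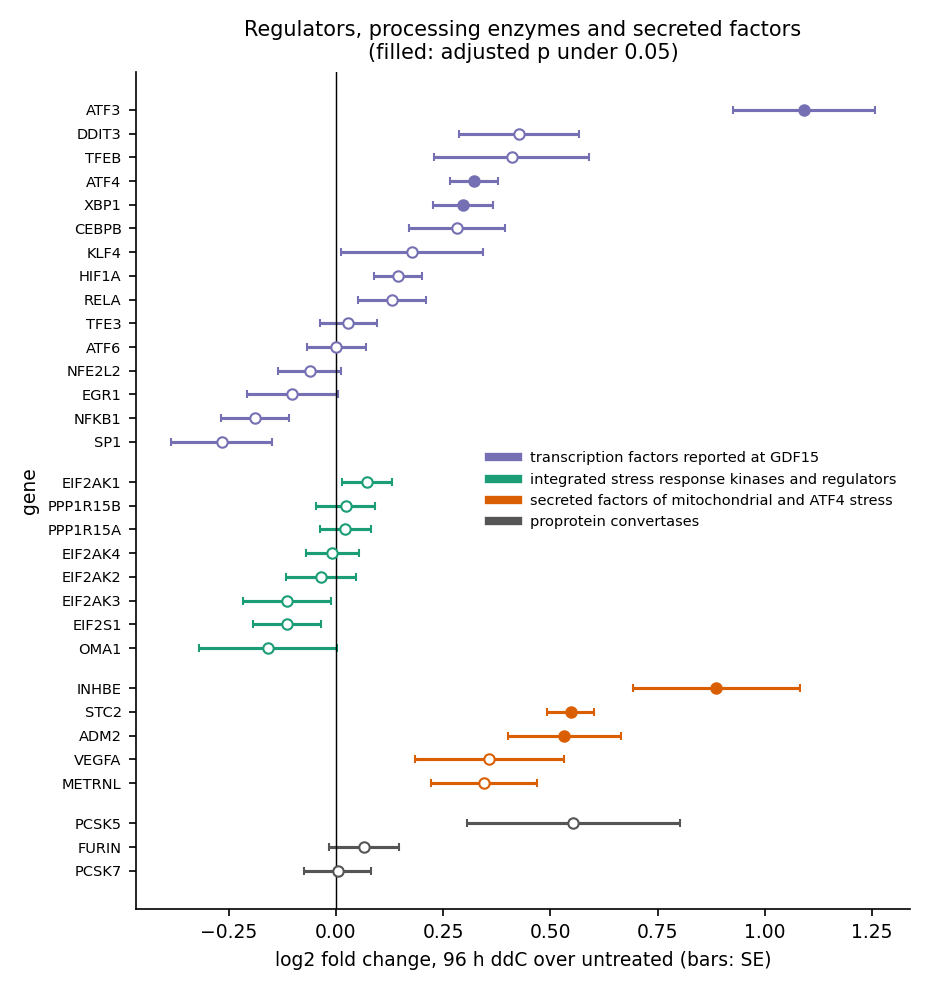
Log2 fold change at 96 h of ddC over untreated cells with its SE (x axis) for transcription factors, integrated stress response regulators, secreted factors and proprotein convertases (y axis, colours for lists), with filled points for genes called at adjusted p under 0.05. ATF3 has the highest value at 1.09, the stress response regulators lie around 0, and INHBE, STC2 and ADM2 are the filled points among secreted factors.

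Secreted factors that share GDF15's stress setting were higher at 96 h in all 5 tested cases, beside 49.2% of all tested genes. Of the 5, 3 were called as higher (60%, beside 3.57% of all tested genes). STC2, stanniocalcin 2, an ATF4-induced glycoprotein, held 990.0, 948 and 990 CPM at 96 h and 663 and 672 CPM in untreated cells. This is a rise of 0.55 ± 0.06 (adjusted p = 4.23e-06). It also rose at 72 h, by 0.29 ± 0.05 (adjusted p = 0.0226). The 72 h call ended without untreated replicate 1 or 2 or 72 h replicate 1 or 3, with adjusted p of 0.0718 to 0.413. It also ended with the antisense index as a covariate (0.294) and in the fit of the compared groups alone (0.190). INHBE, an inhibin beta subunit and TGF-beta superfamily relative of GDF15, held 7.0001, 8.44 and 7.15 CPM at 96 h and 4.42 and 3.70 CPM in untreated cells. At 24, 48 and 72 h it held 3.34 to 5.66 CPM, overlapping the untreated libraries. INHBE rose by 0.89 ± 0.20 at 96 h (adjusted p = 0.00857, and 0.171 without untreated replicate 2). ADM2, a peptide hormone of the calcitonin family, rose by 0.53 ± 0.13 (adjusted p = 0.0175), a call that ended without untreated replicate 2 (0.274) or 96 h replicate 3 (0.0767). METRNL and VEGFA stood at 0.35 ± 0.12 (adjusted p = 0.118) and 0.36 ± 0.17 (adjusted p = 0.287). Both passed in the fit of the compared groups alone (0.00216 and 0.0123) and with the nuclear RNA covariate (0.0177 and 1.04e-07). FGF21, a hormone that often accompanies GDF15 in mitochondrial disease, had 3 counts over all 14 libraries and could not be tested.

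Of 32 ligands of the TGF-beta superfamily other than GDF15, 13 had enough reads to be tested. At 96 h, 4 of the 13 rose (30.8%, beside 3.57% of all tested genes) and 0 fell, with a median log2 change of 0.36 over the 13. The other three, after INHBE, were INHBA, BMP4 and TGFB2. INHBA, the activin A subunit, held 517, 512 and 473 CPM at 96 h and 398 and 415 CPM in untreated cells (0.30 ± 0.06, adjusted p = 0.00211, and 0.0642 without untreated replicate 1). TGFB2, a TGF-beta ligand, rose by 0.46 ± 0.10 (adjusted p = 0.00579, and 0.163 without untreated replicate 2). BMP4, a bone morphogenetic protein, rose by 0.66 ± 0.19 (adjusted p = 0.0415). Its call ended without any 1 of 6 libraries, namely untreated replicates 1 and 2, 24 h replicate 1, 72 h replicate 1 and 96 h replicates 1 and 3, with adjusted p of 0.050002 to 0.415. It also ended with DESeq2 (0.0928) and limma-voom (0.0597). With the antisense index as a covariate the calls of INHBE, ADM2, INHBA, TGFB2 and BMP4 all ended, with adjusted p of 0.130 to 0.280. Their log2 changes were then 1.23, 0.72, 0.26, 0.60 and 0.97.

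The cells held RNA for convertases but not for the receptor. GFRAL and GFRA4 had 0 counts in all 14 libraries. RET had 38 counts, GFRA2 41 and GFRA3 5 in all, too few to test. GFRA1, a co-receptor for GDNF, was at 38.8 ± 4.36 CPM at 96 h (SD, n = 3) and 35.6 ± 1.37 CPM in untreated cells (SD, n = 2), with adjusted p = 0.562. FURIN was at 160 ± 13.96 CPM at 96 h and 153 ± 4.34 CPM in untreated cells, with a log2 change of 0.07 ± 0.08 (adjusted p = 0.712). PCSK7 was at 69.1 CPM at 96 h and 68.9 CPM in untreated cells. PCSK5, with few reads, was at 3.41 CPM at 96 h and 2.32 CPM in untreated cells (0.55 ± 0.25, adjusted p = 0.216).

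The genes whose pattern over the 14 libraries lay nearest to that of GDF15 were sought by the root mean square difference of log2 CPM, each gene centred on its own mean. Among 11988 genes, CDKN1A was nearest at 0.141, while a gene with no change at all would lie at 0.410. Next came CEBPD (0.164), a stress-responsive C/EBP factor, SUSD2 (0.177), a sushi domain membrane protein, AK4 (0.181), a mitochondrial adenylate kinase, BTG2 (0.183), FAM43A (0.185), SERPING1 (0.189), the C1 inhibitor of complement, KIF26B (0.190), BBC3 (0.196) and MAMDC2 (0.197). Chosen for this pattern, they serve as description. In all 10 the lowest 96 h library exceeded the highest 72 h library. In CDKN1A, SUSD2, BTG2, FAM43A, BBC3 and MAMDC2 all 24 h libraries also lay above both untreated ones, and in CEBPD, AK4, SERPING1 and KIF26B they did not. GDF15 has both gaps, so a choice by likeness to it favours them. The share of all tested genes with either gap was not counted. CEBPD held 45.5 to 56.3 CPM at 96 h and 29.4 to 31.6 CPM in untreated cells, and AK4 held 10.2 to 11.8 CPM at 96 h and 5.20 to 6.42 CPM in untreated cells. SERPING1 held 22.5 to 23.3 CPM at 96 h, 13.9 to 14.6 CPM at 72 h and 8.99 to 12.2 CPM in untreated cells, with most of its difference falling between 72 and 96 h. The measure shapes the list: by Pearson r, 4 of these 10 were among the 10 nearest.

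**Figure D4:**
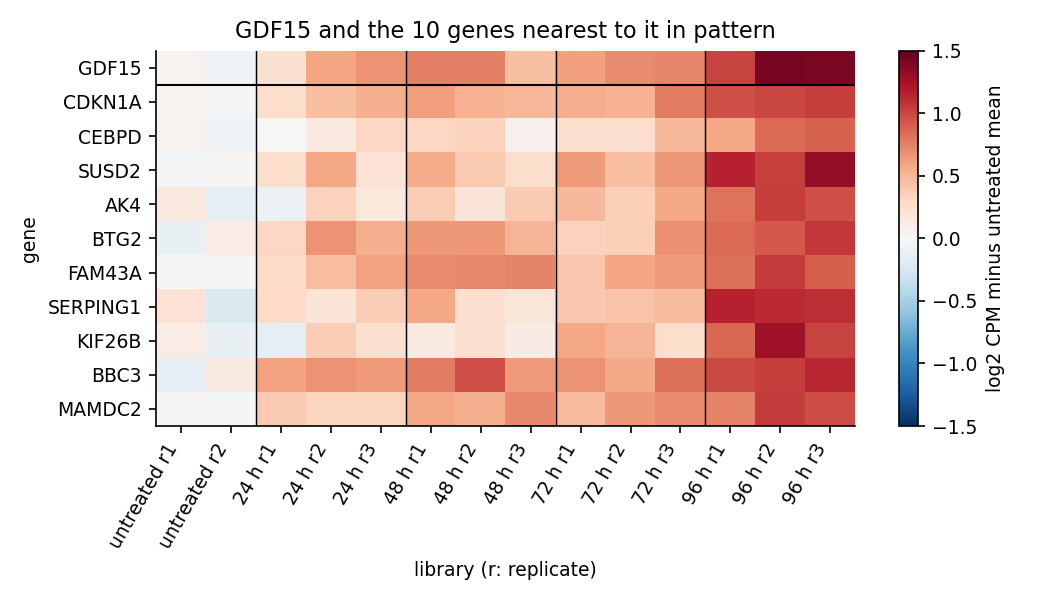
Log2 CPM minus the untreated mean (colour) for GDF15 and its 10 nearest genes (y axis) in each of the 14 libraries (x axis, r for replicate). Every gene is highest at 96 h, CDKN1A, BTG2, FAM43A, BBC3 and MAMDC2 share a visible step at 24 to 48 h, and CEBPD, AK4, SERPING1 and KIF26B are pale there.

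The 2-step order of GDF15, with both untreated libraries below all 9 libraries at 24 to 72 h and those below all 3 at 96 h, was shared by 46 of 13371 genes including GDF15 (0.344%). The mirrored order was found in 48 genes (0.359%). The 46 genes held 8 of the 34 p53 targets (23.5% of that list, 17.4% of the 46), namely BBC3, BTG2, CDKN1A, FDXR, GADD45A, RPS27L, SPATA18 and TNFRSF10B. They held 2 of the 41 ATF4 targets (4.88% of that list, 4.35% of the 46), CBS and SARS. ATF3 and STC2 were also among them. This order was defined after GDF15's values were seen.

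Genes beside GDF15 on chromosome 19 were measured to see whether its surroundings moved with it. Of the 7 genes within 100 kb on hg19, 5 could be tested and 0 were called at any time, beside 5.68% of all tested genes at 96 h. At that share, 0 calls among 5 genes cannot show whether the surroundings moved. Those tested were LSM4, an RNA-binding protein of mRNA decay (0.06 ± 0.07 at 96 h), PGPEP1, a peptidase (0.20 ± 0.11), and SSBP4 (0.31 ± 0.12, adjusted p = 0.147). Also tested were ISYNA1, inositol-3-phosphate synthase (0.36 ± 0.23), and ELL, an elongation factor of RNA polymerase II (0.13 ± 0.10). All 5 estimates were above 0, as were 49.2% of all tested genes. None came near the 1.29 of GDF15, a gene chosen for its levels. MIR3189, in the intron, had 2 counts. LRRC25, on the opposite strand 1967 bases away, had 6 counts.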

How the data were processed

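RNA from 14 IMR90 libraries was made into libraries with a stranded TruSeq mRNA kit, per the labels' protocols. The deposited values are raw read counts per gene on hg19, made with STAR 2.5.3a and HOMER as the submitters' processing notes state. The strand setting is not given in the sources used here, and VIM-AS1 had 0.155% of the counts of VIM. Mitochondrially encoded genes were 0 in the table. GDF15, the gene lists and the tests were chosen with earlier results of these data known.

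Counts were tested with edgeR 4.0.16 in R 4.3.3 (robust quasi-likelihood test, a mean for each of the 5 groups over 14 libraries, TMM factors 0.971 to 1.02, filterByExpr with minimum count 10 and minimum total 15), which kept 13371 genes. Adjusted p is by Benjamini-Hochberg over all of them, two-sided. SE is the log2 change over the square root of the F statistic. CPM uses TMM-scaled totals of the tested genes, and log2 CPM a prior count of 3. GDF15 was tested nowhere. Named genes are GDF15, its 10 nearest in pattern, the tested genes within 100 kb, all tested members of the short lists, and up to 6 called members in each direction of the ATF4, p53 and TGF-beta lists by smallest p, with CDKN1A, MDM2, ASNS, CHAC1, TRIB3 and SESN2. Those named for their early calls or shared order (CBS, FDXR, RPS27L, SARS and others) were named after their values were seen. At these depths, in simulated data for 96 h, 22%, 76%, 92% and 93.9% of genes changed 1.25-, 1.5-, 2- and 4-fold were recovered among 13270 genes, and 6 of 13071 unchanged genes were called. The simulated libraries held no shift in the antisense index or nuclear RNA, so recovery and false calls in the real libraries may differ. The result of 1 listed transcription factor is not reported here. Other settings were median-ratio factors, raw totals, no filter, DESeq2 1.42.0, limma-voom (limma 3.58.1), a replicate block, a nuclear RNA score (MALAT1, NEAT1, MEG3, KCNQ1OT1), the antisense index, the compared groups alone and leaving out each library. Leaving out libraries of groups not compared, and 96 h over 72 h, were chosen after seeing the data.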

Additional observations from a re-analysis of the deposited data

How the results depend on the processing

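GDF15 was above 0 at every time under every setting run. Its log2 change at 24, 48, 72 and 96 h was 0.43 to 0.63, 0.60 to 0.76, 0.63 to 0.73 and 1.23 to 1.42 when 1 library was left out. Under median-ratio factors, raw totals, no filter, the replicate block, the nuclear RNA score, the compared groups alone, DESeq2 and limma-voom it moved by less than the spread between libraries of a group (0.17). With the antisense index as a covariate the 96 h change was 1.49. Within the higher-index libraries, 96 h over 72 h, it was 0.61. With the replicate block it was 0.49, 0.64, 0.66 and 1.27. Same-numbered libraries did not deviate together (26 pairs, r from -0.36 to 0.61, 11 of them over 0.1), and 6 of 14 libraries correlated best with their own number. The block gave 687 genes at 96 h against 759 and ended no call of a named gene at 96 h.

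The counts of calls moved far more. With 1 library left out, genes called were 0 to 1 at 24 h, 0 to 2 at 48 h, 1 to 35 at 72 h and 174 to 1034 at 96 h. ATF4 targets called were 0 to 2 at 72 h and 8 to 30 at 96 h, and p53 targets 0 to 2 and 9 to 21. Without a filter, 1, 3 and 47 genes were called at 24, 48 and 72 h, with 3 ATF4 and 4 p53 targets at 72 h. With the nuclear RNA score the counts were 1, 34, 247 and 1848 genes, with 8 ATF4 and 11 p53 targets at 72 h. With the antisense index they were 4 genes at 72 h and 82 at 96 h, with 0 ATF4 targets and 1 p53 target at 72 h and 4 of each at 96 h. In the fit of the compared groups alone they were 7 and 1646 genes, with 0 ATF4 targets and 1 p53 target at 72 h. DESeq2 called 1 gene at 24 h, 54 at 72 h and 3 ATF4 targets at 72 h. limma-voom called 0 genes at 48 h and 1 p53 target at 72 h. For 96 h over 72 h the counts were 69 genes, 1 ATF4 target and 2 p53 targets. By Pearson r, 4 of the 10 nearest genes were shared. The cause of these shifts was not tested.

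Among named genes at 96 h, reversals concerned genes that were not called. Most were near 0 in the main fit, but OMA1 was at -0.16 and EIF2S1 at -0.11. ATF6 stood at -0.001111 without a filter and -0.0120 with the nuclear RNA score. With the antisense index PCSK7 was at -0.0257, NFE2L2 at 0.0545, EIF2AK2 at 0.0335, EIF2AK4 at 0.0876, OMA1 at 0.31 and EIF2S1 at 0.0211. With 1 library left out the ranges were -0.00972 to 0.112 for FURIN, -0.107 to 0.120 for PCSK7, -0.0230 to 0.0199 for ATF6 and -0.174 to 0.0582 for NFE2L2. They were -0.00994 to 0.0705 for TFE3, -0.0982 to 0.0554 for EIF2AK2, -0.0565 to 0.0394 for EIF2AK4, -0.0272 to 0.0707 for PPP1R15A and -0.0444 to 0.0899 for PPP1R15B. The index also ended 17 of the named calls with no change of direction. Counting error on GDF15 was 4.46% to 7.58% of its value per library, and differences between libraries below that size cannot be told from it. The SD between libraries of a group was 4.28% of the mean at 72 h and up to 15.6%, at 24 h. The smallest difference that could be detected was not tested.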
